A study of Homo sapiens with 18 samples.

Results

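Of the 652 peaks called for wild-type EHMT1 with the V5 antibody in LNCaP prostate cancer cells, 425 (65.2%) overlapped, by at least 1 bp, a peak in each of the other 8 peak lists of the series. These 425 shared regions are described here. They were selected by the calls of all 9 lists, so their presence in every list and their enrichment there are given as a description. Their position, annotation and sequence were not used by the selection. All 9 lists together held 22458 peaks. Of the shared regions, 423 lay on nuclear chromosomes and 2 on the mitochondrial genome.

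Chromatin immunoprecipitation followed by sequencing (ChIP-seq) had been carried out in LNCaP, an established androgen-responsive prostate cancer cell line. Stable lines expressed V5-tagged EHMT1 under doxycycline control, either wild type (WT) or carrying the lysine-to-arginine changes K450R, K451R or both (K450RK451R), and each received 0.5 µg/ml doxycycline for 2 days. V5 and H3K9me2 were each precipitated from these 4 lines, and native EHMT1 from parental LNCaP cells left untreated. By the labels, the 18 samples formed 9 groups of 2 replicates with 1 peak list per group. The 4 lines carry the tagged protein on top of the cells' own EHMT1, and whether each line is a single clone is not given in the sources used here. The sources used here do not say which of the replicates entered a list. No spread between replicates could be given and no test was made, and every difference between lists below is a difference between single lists.

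EHMT1 (also called GLP) and its partner EHMT2 (G9a) mono- and dimethylate lysine 9 of histone H3, and H3K9me2 is the dimethylated form, found over broad stretches of silent chromatin. Centromeres and the chromatin around them are built of satellite DNA, short units repeated head to tail over very long stretches. In the hg19 assembly most of this DNA is not written out but stands as a gap, and the copies at the edge of the gaps and on unplaced scaffolds represent it. Alpha satellite, whose unit is about 171 bases long, carries in some copies the CENP-B box, the sequence bound by the centromere protein CENP-B. Other satellites are built from the pentamer CATTC.

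Among the 5 regions with the highest −log10 q in the WT V5 list, taken at least 1 Mb apart, 3 belonged to a repeat with a unit of 171 bases, the kind that made up most of the shared regions. The DNA under their summits is printed here because it shows this repeat at the strongest places, with each named by its rank among the 5. Each line holds 201 bases centred on the WT V5 summit, read 5′ to 3′ on the plus strand of hg19. Capitals mark a CENP-B box (TTCG, 4 bases of any kind, A, 2 of any kind, CGGG, with 1 more base on either side) or the pentamer CATTC on either strand, so a match on the minus strand appears as its reverse complement.
Rank 2, chr9:69711027-69711227: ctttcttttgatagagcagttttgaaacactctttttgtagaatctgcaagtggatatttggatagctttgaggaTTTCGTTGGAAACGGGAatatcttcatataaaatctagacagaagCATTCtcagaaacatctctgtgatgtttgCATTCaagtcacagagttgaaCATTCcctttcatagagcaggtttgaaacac
Rank 4, chr9:66971111-66971311: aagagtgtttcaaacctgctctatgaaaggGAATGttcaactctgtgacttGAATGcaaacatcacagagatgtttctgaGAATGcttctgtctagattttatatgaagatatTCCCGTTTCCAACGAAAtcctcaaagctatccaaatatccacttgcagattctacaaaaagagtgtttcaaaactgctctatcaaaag
Rank 5, chr1:121485232-121485432: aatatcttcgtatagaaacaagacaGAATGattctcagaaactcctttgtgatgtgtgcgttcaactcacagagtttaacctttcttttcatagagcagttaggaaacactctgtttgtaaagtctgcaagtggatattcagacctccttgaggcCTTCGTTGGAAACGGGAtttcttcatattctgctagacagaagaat
Rank 2 held 1 CENP-B box, rank 4 held 1 on the minus strand and rank 5 held 1 on the plus strand. Rank 2 and rank 4, which lie apart on chromosome 9, were identical over 197 bases on opposite strands. Rank 5, on chromosome 1, shared 82.7% of 110 aligned bases with rank 2.

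The SENP5 region, in an intron of the gene for a SUMO-specific protease, ranked first and was the strongest. At chr3:196625610-196625816 its fold enrichment, the ratio of reads piled up at the summit to the local background after 1 is added to each, was 45.2 for WT V5, 43.0 for K450R, 41.1 for K451R and 35.8 for K450RK451R. With the H3K9me2 antibody it was 39.8, 40.2, 37 and 44.7 in the same order of lines, and it was 36 for native EHMT1. The values of the 3 antibodies overlapped, and the highest was 1.26 times the lowest. The pileup there was 130 to 149 reads over the 9 lists, while the estimated reads behind a list ran from 8.79 to 27.6 M (mega). What this narrow range of pileups did to the folds was not tested. This region lay 1.34 Mb from the nearest gap.

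At rank 2, chr9:69710896-69711358, the fold was 24.7, 22.8, 21.6 and 20.6 in the V5 lists of WT, K450R, K451R and K450RK451R, 22.2, 22.1, 19.7 and 22.4 in the H3K9me2 lists in that order, and 20.1 for EHMT1. At rank 4, chr9:66971008-66971445, it was 22.4 for WT V5, 20.1 for H3K9me2 in WT cells and 19.8 for EHMT1, and ran from 19.2 to 23.4 over the 9 lists. Over the 9 lists the pileup was 132 to 169 reads at rank 2 and 125 to 166 at rank 4. Neither summit window held a stretch of 51 bases, the length of the reads, that occurred only once in the genome. Reads from these places cannot be assigned to 1 of the copies. The peak at rank 3, chr9:44070642-44070832, overlapped the pseudogene ANKRD20A7P and had a fold of 39.3, 39.8, 40.2 and 35.5 for V5, 34.5, 39.5, 34.8 and 40.1 for H3K9me2, and 32.3 for EHMT1. At rank 5, chr1:121484279-121485438, whose summit lay 0.103 kb from a gap, the pileup stood at 199 to 200 reads in every list, the highest value any list held, and the fold ran from 6.52 to 8.21.

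The regions with the lowest −log10 q for WT V5 were near gaps as well. At chr8:46849792-46849891, 10.9 kb from a gap, the WT V5 fold was 2.43 with a −log10 q of 3.22. An intron of MUC2, the gene of a gel-forming mucin, held the next one at chr11:1093294-1093451. There the fold was 5.81, 7.14, 6.54 and 9.80 for V5 in the order WT, K450R, K451R and K450RK451R, 6.09, 7.46, 10.3 and 6.02 for H3K9me2, and 8.15 for EHMT1. At chr8:43837571-43837722 the WT V5 fold was 3.13 with a −log10 q of 4.28.

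Some peaks lay close to the border of the selection on either side. The shortest overlaps that still counted were 6 bp at chr8:43837302-43837430 with a WT V5 fold of 3.27, 7 bp at chr5:11200-11553 with 5.47, and 24 bp at chrY:13695034-13695155 with 7.05. Just outside, peaks missed 1 list by 60 bp at chr16:35229021-35229120 with a fold of 7.84, by 61 bp at chr2:92296597-92296696 with 4.11, and by 67 bp at chr21:11186769-11186873 with 7.61. Of the 227 WT V5 peaks left out, 88 missed a single list, which was the V5 list of K450R for 35 of them and H3K9me2 of the K450RK451R line for 20. Only 5 were in the WT V5 list alone. Among the 652 WT V5 peaks, the V5 lists of K450R, K451R and K450RK451R overlapped 81.4%, 91.7% and 96.3%, the H3K9me2 lists of WT, K450R, K451R and K450RK451R overlapped 84.2%, 85.0%, 89.7% and 82.8%, and EHMT1 overlapped 95.1%.

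Shared regions took up very different parts of the lists. For V5 they held 66.6% of the K450R list, 49.0% of the K451R list and 2.78% of the 14799 K450RK451R peaks. Among H3K9me2 peaks they held 53.2% in WT, 50.8% in K450R, 32.6% in K451R and 46.3% in K450RK451R cells, and they held 23.3% of EHMT1 peaks. At the top of each list the picture was more even. In all 9 lists the 10 peaks with the highest −log10 p lay at shared regions, and among the highest 100 from 89 (EHMT1) to 100 (V5 WT, H3K9me2 WT and H3K9me2 K450R) did so. The 94 of the V5 K450RK451R list came from the longest list.

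The shared regions were unevenly spread over chromosomes. Chromosome 10 held 55, chromosome 2 held 41, chromosome 16 held 34, and chromosomes 9 and Y held 33 each, together 196 (46.1%). Chromosome 15 held none, with 2 WT V5 peaks of any kind, chromosome 13 held 2 and chromosome 3 held 4. Per 10 Mb of sequence outside gaps the count was 14.4 on chromosome Y, 4.87 on 22, 4.31 on 16 and 4.19 on 10, against 1.48 over the whole genome and 0.205 on chromosome 3. The kinds of sequence differed too. Of the 33 regions on Y, 18 belonged to a CATTC repeat and 13 to a repeat with a 68-base unit, and chromosome 22 held 16 of the 17 regions of another repeat, called here the chromosome 22 repeat for that reason.

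**Figure D1:**
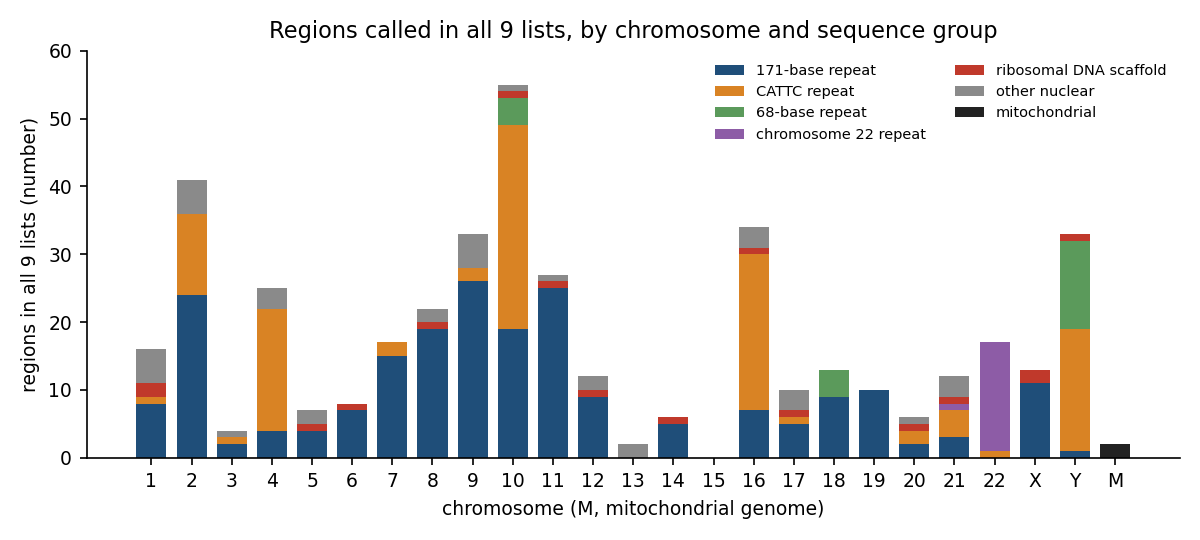
Number of regions called in all 9 lists on each chromosome (horizontal axis), with colours for the sequence groups described in the text. Chromosome 10 is highest with 55, chromosome 15 has none, and purple, a repeat with 16 of its 17 shared regions on chromosome 22, is hardly seen on the other chromosomes in this set.

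They also lay in tight clusters. When neighbours within 100 kb were joined, 356 of the regions (84.2%) fell into 56 runs and 67 stood alone. The largest run held 23 regions in chr10:42356426-42418375, 17 of them of the CATTC repeat. The next held 21 in chr2:92269064-92325594 and 19 in chr10:42527373-42600446, and 18, all of the CATTC repeat, lay in chr16:46386819-46500004. These runs came within 0.416 to 1.55 kb of a gap. Neighbouring regions are therefore not independent observations, and the intervals given below cover counting error only.

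Most regions lay beside gaps of the assembly. Within 1 Mb of a gap of at least 10 kb were 362 of 423 nuclear regions (85.6%, 95% Wilson interval 81.9% to 88.6%), while 11% of the genome outside gaps lies that near. Within 100 kb were 68.8%, against 1.71% of the genome. Gaps of at least 1 Mb, the size class that holds the centromere placeholders, had 298 regions (70.4%) within 1 Mb, against 1.53% of the genome. The median distance to a gap was 39.4 kb with quartiles of 11.6 and 171 kb, and the regions ranged from 0.0630 to 27308 kb. WT V5 peaks outside the shared set were nearly as close, with a median of 49.5 kb and 76.4% (70.5% to 81.5%) within 1 Mb. Peaks found only with the EHMT1 antibody had a median of 5543 kb with 22.1% within 1 Mb, and V5 peaks found only for K450RK451R had 7485 kb with 15.5%.

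**Figure D2:**
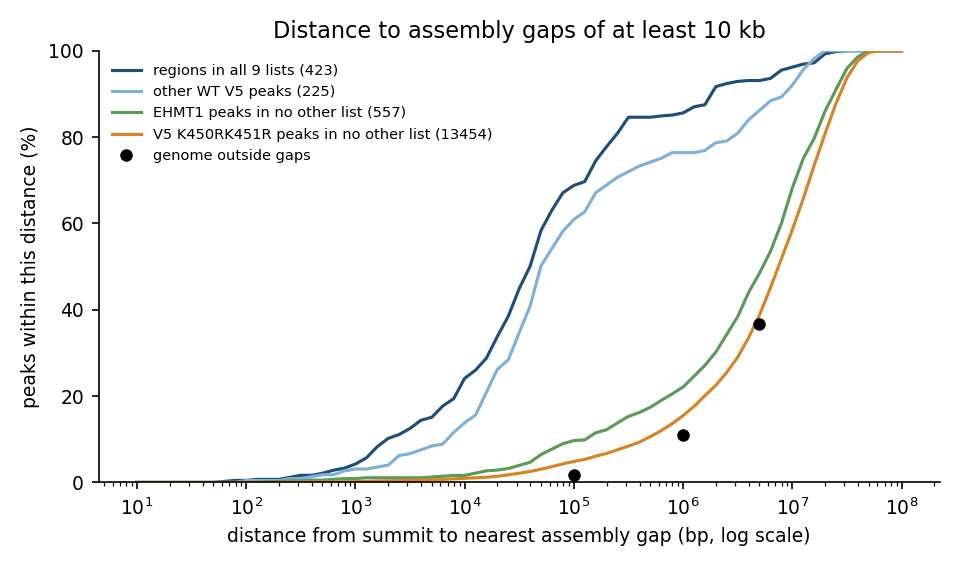
Share of peaks (vertical axis, percent) whose summit lies within a given distance of an assembly gap of at least 10 kb (horizontal axis, bp, log scale), for the shared regions, the other WT V5 peaks, and peaks found only in the EHMT1 or only in the V5 K450RK451R list. Black points give the share of the genome outside gaps, and at 1 Mb the shared regions reach 85.6% against 11% of the genome.

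The annotation around the regions was sparse. In GENCODE, 372 of the 423 nuclear regions (87.9%, 84.5% to 90.7%) overlapped no annotated gene, compared with 37.9% of 285857 windows of the same length placed every 10 kb across the genome. Protein-coding genes were overlapped by 21 regions (4.96%, 3.27% to 7.47%), against 45.7% of the genome windows, 14.7% of the other WT V5 peaks, 44.2% of peaks found only for EHMT1 and 49.6% of those found only for V5 K450RK451R. Long non-coding RNA genes were overlapped by 26 regions (6.15%, against 19.1% of windows). Pseudogenes were overlapped by 6 regions (1.42%, 0.652% to 3.06%), a share whose interval includes the 1.85% of the genome windows. Among the other WT V5 peaks it was 5.33% (3.08% to 9.09%).

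The 21 regions touched 18 protein-coding genes, in introns for 20 of the 22 overlaps of a region and a gene. ANKRD30BL, a member of an ankyrin repeat family, carried 5 regions between 132984394 and 133003398 on chromosome 2, all of the 171-base repeat and 16.7 Mb from the nearest gap, with WT V5 folds of 8.73 to 13.7. The other genes had 1 region each. Besides SENP5 and MUC2 they included CACNA1C (the pore subunit of a voltage-gated calcium channel; WT V5 fold 12.9), COL23A1 (a transmembrane collagen; 8.75), SH3RF3 (6.29, with no unique 51-base stretch) and RP11-195B21.3 (14.9). A coding exon was hit only in CDC27, which encodes a subunit of the anaphase-promoting complex. At chr17:45234265-45234411 its fold was 16.1 for WT V5, 14.3 for H3K9me2 in WT cells, 13.1 for V5 K450RK451R and 25.2 for EHMT1. A non-coding exon was hit only in PCSK5, a proprotein convertase gene, at chr9:78790094-78790226, where WT V5 was lowest with 10.0 and V5 K450RK451R highest with 19.5.

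Among the 9 pseudogenes overlapped, 4 belonged to the ANKRD20A family. ANKRD20A2P and ANKRD20A3P shared the region chr9:42415985-42416144, which ranged from 25.5 for EHMT1 to 31.3 over the 9 lists, with 30.1 for WT V5. ANKRD20A7P is the third-ranked region above, and ANKRD20A8P on chromosome 2 had a WT V5 fold of 10.6. The others were DUX4L26 and RPL23AP49 in a single region, chr3:75718377-75718507 (9.31), CTD-2328D6.1 on chromosome X (11.8), and MTCO1P12 with an unnamed neighbour in 1 region on chromosome 1 (4.48). Of 24 gene families taken by the start of their symbols, 6 had a member at a shared region. ANKRD20A had 4 of 16 annotated genes, and ANKRD30, FAM27, FRG1, MUC and DUX4 had 1 each. Over all 62296 annotated gene symbols, 49 (0.0787%) had a shared region. With so small a share, the count of 0 for the 684 ZNF, 860 OR, 63 GOLGA and 521 RNA5S genes is no result about those families. The long non-coding RNA genes included FAM230F with 3 regions, FAM230D with 2, and FAM230B, FAM230H and FAM230I with 1 each, all on chromosome 22.

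When the 201-base summit windows were aligned with each other, most fell into a few groups of like sequence. The largest, the 171-base repeat, held 215 regions (50.6%) on 21 chromosomes. Tandem repetition, meaning that at least 50% of the bases within 1 kb of the summit equalled those at a fixed shift of 5 to 400 bases, was seen in 186 of them, with a best shift of 171 bases in 136 and of 340 bases in 31. These are the unit lengths of alpha satellite and its dimer, and the CENP-B box was present in 71 (33.0%). The CATTC repeat held 115 regions (27.1%) on 13 chromosomes, with shifts of 5 bases in 48, 49 bases in 19, 26 bases in 19 and 15 bases in 15, and CATTC directly repeated in 81 (70.4%). The group called the 68-base repeat held 21 regions on chromosomes Y, 10 and 18. Tandem repetition was seen in 12 of them, with a best shift of 68 bases in 9. The chromosome 22 repeat held 17, of which 8 had no unique stretch of 51 bases and only 1 showed tandem repetition. Of the remaining nuclear regions, 16 on 14 chromosomes matched the unplaced scaffold that carries ribosomal DNA best. The other 39 belonged to none of these groups and are called regions of no group below. Some of them were still repeats or alike. Tandem repetition was seen in 10 of the 39, and chr12:133841529-133841865 and chr5:11200-11553 shared at least 150 identical bases. A best match to the ribosomal DNA scaffold was not particular to the shared regions. It was found in 3.78% (2.34% to 6.06%) of them, in 8.89% (5.83% to 13.3%) of the other WT V5 peaks and in 0.180% of peaks found only for EHMT1.

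The groups differed in position. Within 1 Mb of a gap were 197 of the 215 regions of the 171-base repeat (91.6%), 111 of the 115 CATTC regions (96.5%) and all 21 of the 68-base repeat. In contrast, only 5 of the 17 regions of the chromosome 22 repeat and 3 of the 16 that matched ribosomal DNA lay that close. The 61 regions beyond 1 Mb were thus made of 18, 4, 0, 12 and 13 from these groups and 14 from no group. Their median WT V5 fold was 11, compared with 7.44 for the 362 nearer ones, and their local background was 3.33 times the genome-wide value, compared with 14.4 times near gaps.

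Over all shared regions a CENP-B box, searched on both strands as spelled out above, was found in 16.8% (13.5% to 20.6%) of summit windows, against 9.33% of the other WT V5 peaks, 0.539% of peaks found only for EHMT1 and 0.0161% of genome windows. CATTC directly followed by a further CATTC was found in 19.1%, against 16.4%, 1.44% and 0.109% in the same order. TTAGGG directly followed by TTAGGG, the telomere repeat, was found in only 2 windows (0.473%, 0.130% to 1.71%), against 0.00525% of genome windows and 2.22% (0.953% to 5.10%) of the other WT V5 peaks. A motif of the neuronal repressor REST (GG, any base, then GCTGTCC) was found in 0 of 423 windows, and a count of 0, taken as at most 3, allows a share of up to 0.709%. The motif was in 0.132% of genome windows and 0.342% of V5 peaks found only for K450RK451R, which this number of windows cannot tell from the shared regions, and in 2.67% of the other WT V5 peaks and 23.5% of the peaks found only for EHMT1. At least 100 bases of 408 windows (96.5%) matched 1 of the 59 unplaced scaffolds, against 82.2% of the other WT V5 peaks and 10.6% of peaks found only for EHMT1. Such a match is a likeness of sequence and says nothing of where the reads came from.

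Many of these windows held a stretch of 51 bases, the length of the reads, that occurs once in the assembly. In 69 windows (16.3%, 13.1% to 20.1%) no stretch of that length was unique, against 2.28% of genome windows. The share was 11.1% (7.64% to 15.9%) among the other WT V5 peaks, an overlapping interval. It was 3.77% among the EHMT1-only and 16.6% among the K450RK451R-only peaks. The other 354 windows of the shared regions held at least 1 unique stretch. Unique means found once in the assembly, where most satellite DNA stands as gaps. A unique stretch therefore does not mean that the reads of a window can be assigned to it. Median folds of the 69 and of the 354 were 7.76 and 8.05 for WT V5, 6.67 and 8.35 for H3K9me2 in WT cells, 8.12 and 7.88 for EHMT1, and 6.19 and 8.07 for V5 K450RK451R. The H3K9me2 and K450RK451R values were thus lower where no stretch was unique, while WT V5 and EHMT1 stood near each other.

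Closely related copies could be called side by side. In 46 pairs, with 56 regions among them, the 2 windows shared at least 150 identical bases, and 45 of the pairs lay on the same chromosome. The higher WT V5 fold of a pair was 1.00 to 2.68 times the lower, with a median of 1.15. A series of 5 such regions on chromosome 10 had summits 3016 to 3100 bases apart. Starting at 42533796, 42536857, 42539911, 42542962 and 42546002, they had WT V5 folds of 5.01, 5.34, 4.92, 5.57 and 10.5, H3K9me2 folds in WT cells of 4.73, 5.08, 5.49, 6.55 and 9.67, and EHMT1 folds of 4.59, 4.56, 4.44, 5.61 and 9.52. The last of the series was the highest with each of these antibodies.

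Sequences of the shared groups also recurred in other peaks. Of the other WT V5 peaks, 65.8% aligned with a shared region over at least 100 bases, 34.2% best with the 171-base repeat and 20.9% best with the CATTC repeat. Of the peaks found only for EHMT1, 6.82% did so. Of the 13454 V5 peaks found only for K450RK451R, 54.8% did so, but 51.3% had their best match in the chromosome 22 repeat, and only 0.617% and 0.535% matched best to the 171-base and CATTC repeats. A best match to a region of the chromosome 22 repeat was thus common among these peaks. Such a match needed only 100 aligned bases of 1 region of that group. Which stretch aligned was not examined, so the match does not make these peaks copies of that repeat. How common such a match is over the genome was not measured, so this share shows no trait particular to these peaks. The name of the repeat refers only to where the shared regions of that group lie.

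The lists of the 3 antibodies gave closely similar folds at the shared regions. As inferred from the values, no input control was used. Each fold sets the pileup of a list against the local background of that same list. It does not by itself measure enrichment by an antibody. The median fold was 7.99 (V5 WT), 8.03 (V5 K450R), 8.31 (V5 K451R) and 8.03 (V5 K450RK451R), then 8.18, 8.03, 7.67 and 8.19 for H3K9me2 in the same lines, and 7.87 for EHMT1. The H3K9me2 medians (7.67 to 8.19) overlapped those of V5 (7.99 to 8.31). The single EHMT1 median lay within the H3K9me2 range and below every V5 median. The medians of whole lists ran from 4.89 (V5 K450RK451R) to 7.59 (V5 K450R). Relative to WT V5, the median log2 ratio of folds was −0.05 for H3K9me2 in WT cells, −0.14 for EHMT1 and −0.10 for V5 K450RK451R. Within a region, the highest of the 9 folds was 1.41 times the lowest at the median, and 25 of 425 regions reached a ratio of 2 or more. A peak of another list could overlap several WT V5 peaks and then stood for each of them, which was the case in at least 1 list for 35 of the 425 regions (8.24%).

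Summits and ranks were alike as well. In the 36 pairs of lists, the median distance between summits was 4 to 7 bp and 87.8% to 92.7% of the summits were within 50 bp of each other. Spearman's rank correlation of the fold across the 425 regions was 0.91 to 0.96 for the 12 pairs with the same antibody and 0.90 to 0.97 for the 24 pairs with different antibodies, with a median of 0.94 for both. The highest, 0.97, was that of EHMT1 in parental cells with H3K9me2 in the K451R line. The points are regions that share libraries and neighbours, so these values carry no test.

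**Figure D3:**
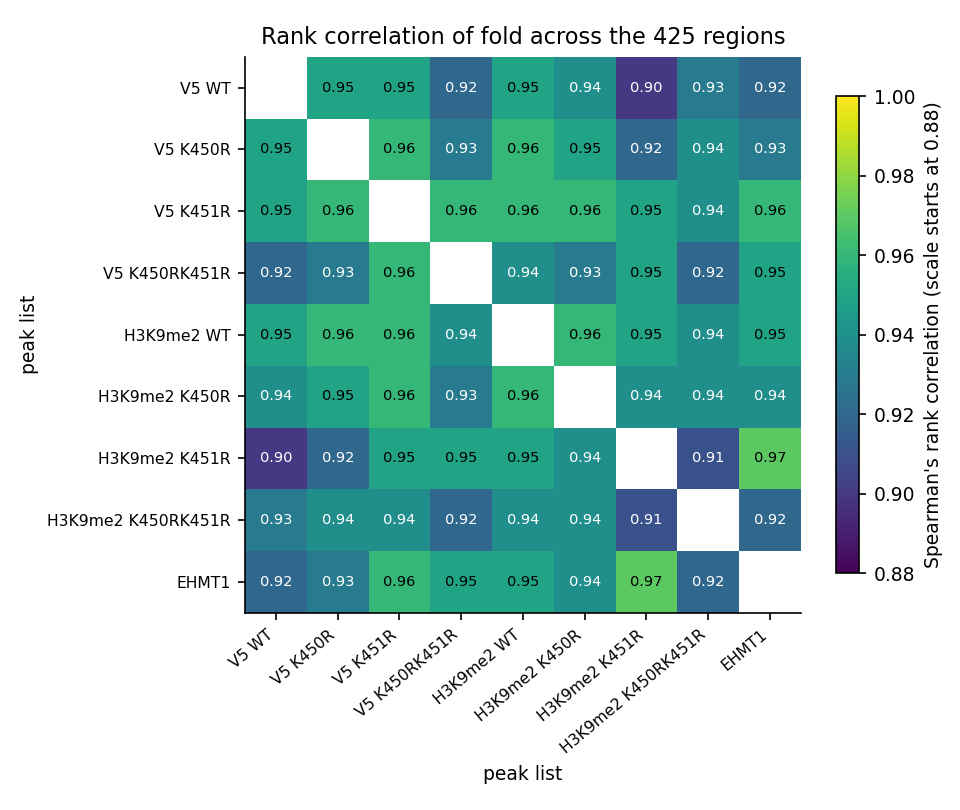
Spearman's rank correlation of the fold enrichment across the 425 shared regions for each pair of peak lists, with a colour scale that starts at 0.88. Values run from 0.90 to 0.97, and pairs with the same antibody (0.91 to 0.96) do not stand out from pairs with different antibodies.

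On another scale the lists did differ. The estimated number of reads behind a list, in M (mega), was 8.79 for H3K9me2 K450RK451R, 8.84 for V5 WT, 11.1 for V5 K450R, 14 for H3K9me2 K450R, 14.1 for V5 K451R, 17.9 for H3K9me2 WT, 22.7 for V5 K450RK451R, 26.8 for EHMT1 and 27.6 for H3K9me2 K451R. In that order the median pileup at the regions, divided by the genome-wide background of the list, was 144, 125, 109, 98.6, 103, 76.9, 81.0, 76.5 and 72.5. The lists with fewest reads had the highest ratios whichever the antibody. That order is partly built in, because the reads were estimated from the same genome-wide background that divides the pileup. H3K9me2 K450RK451R was highest of all 9 at 278 of the regions and V5 WT at 97. The highest pileup was 199 or 200 reads in every list, although the estimated reads ran from 8.79 to 27.6 M. What this common limit did to the pileups and folds was not tested. The median pileup itself was 41 to 76 reads. Relative to WT V5, the median log2 ratio on this scale was −0.77 for H3K9me2 in WT cells, −0.89 for EHMT1 and −0.88 for V5 K450RK451R. What part the number of reads had in this was not tested.

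Most sequence groups had a nearly level fold across the lists. The group medians of the 171-base repeat ran from 7.24 (H3K9me2 K451R) to 8.59 (H3K9me2 WT), those of the CATTC repeat from 6.02 to 6.99, those of the 68-base repeat from 4.60 (V5 K450RK451R) to 5.85, and those of the chromosome 22 repeat from 11.5 (V5 WT) to 14.2 (H3K9me2 K451R). The highest median was 1.16 to 1.27 times the lowest in these groups and 1.30 times the lowest for the nuclear regions of no group (7.58 to 9.83). The spread was wider for the 2 mitochondrial regions, with a ratio of 1.86, and widest for the regions that matched ribosomal DNA, with a ratio of 2.57.

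**Figure D4:**
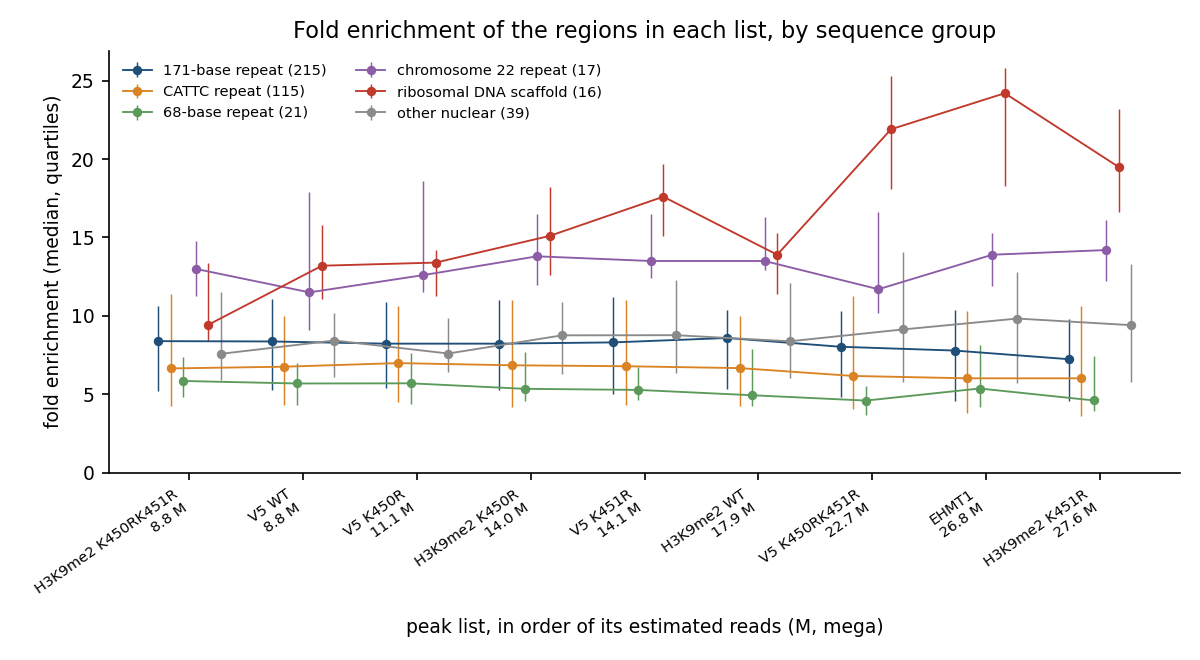
Fold enrichment (vertical axis) of the shared regions in each list, with lists ordered by their estimated reads (horizontal axis, M for mega) and colours for sequence groups. Points are medians over regions, bars are quartiles over regions and numbers in brackets are regions. The ribosomal DNA group runs from 9.43 to 24.2, while the 171-base repeat stays between 7.24 and 8.59.

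The 16 regions of this group are scattered stretches with likeness to the unplaced scaffold that carries ribosomal DNA, the repeated genes for the large ribosomal RNAs and the spacer between them. Their windows aligned to 105436 to 144520 of its 161802 bases at 88.7% to 100% identity, with a median of 97%. Every window held at least 1 unique stretch of 51 bases, and 13 regions lay more than 1 Mb from a gap. Protein-coding genes were overlapped by 8 of them, in introns of PDE3A (a cyclic nucleotide phosphodiesterase), DLG2 (a synaptic scaffold protein), UNC45B (a myosin chaperone), HFM1 (a meiotic helicase), MAN1A1 (a mannosidase of the Golgi), PARN (a poly(A) ribonuclease), SLCO5A1 and PMF1 with its readthrough PMF1-BGLAP.

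In these 16 regions the median fold was 13.2 (V5 WT), 13.4 (V5 K450R), 17.6 (V5 K451R) and 21.9 (V5 K450RK451R). With H3K9me2 it was 13.9, 15.1, 19.5 and 9.43 in the same lines, and it was 24.2 for EHMT1. By fold the K450RK451R line was therefore the highest of 4 with V5 and the lowest of 4 with H3K9me2. The fold over WT V5 had a median log2 ratio of 0.63 for V5 K450RK451R and 0.70 for EHMT1, each higher in 15 of 16 regions, and of 0.50 for H3K9me2 in K451R cells. Those are also the 3 lists with the most reads, and H3K9me2 K450RK451R is the list with the fewest. The deposited fold adds 1 to pileup and background, and the median background here was 0.770 reads for V5 WT, 2.27 for V5 K450RK451R, 2.57 for EHMT1 and 0.655 for H3K9me2 K450RK451R. Pileup over the genome-wide background ran from 46.0 (H3K9me2 WT) to 89.1 (EHMT1), with 73.3 for V5 WT, 87.5 for V5 K450RK451R, 67.1 for H3K9me2 K451R and 58.4 for H3K9me2 K450RK451R. On that scale the K450RK451R line was again the highest of 4 with V5. With H3K9me2 it was no longer the lowest and lay above WT. Over the 9 lists, the median fold of this group had a Spearman's rank correlation of 0.90 with the estimated reads, and its median on the pileup scale 0.43. The part of depth in these differences was not tested.

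The widest spread of any shared region was found in this group, at chr5:71146751-71146929, with folds of 15.2, 12.4, 19.2 and 31.2 for V5 in WT, K450R, K451R and K450RK451R, of 18.3, 14, 23 and 5.70 for H3K9me2, and of 25.6 for EHMT1. By fold, K450RK451R cells had the highest value with V5 and the lowest with H3K9me2. For H3K9me2 the group medians above ranked otherwise on the pileup scale. The MAN1A1 region, chr6:119558522-119558721, gave 21.5, 13.9, 26.3 and 35.3 for V5, 22.4, 23.3, 30.0 and 15.9 for H3K9me2, and 27.1 for EHMT1. In the DLG2 intron, chr11:85195006-85195226, the values were 16.8, 14.5, 17.9 and 25.8 for V5, 15.6, 14.3, 21.5 and 9.09 for H3K9me2, and 30.3 for EHMT1. All 3 regions had more fold in the V5 K450RK451R list than in any other V5 list. A region of the same group beside a gap, chr21:9827008-9827532, differed from these and gave 6.94, 7.14, 5.74 and 5.91 for V5, 6.31, 9.37, 8.52 and 8.11 for H3K9me2, and 6.89 for EHMT1.

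**Figure D5:**
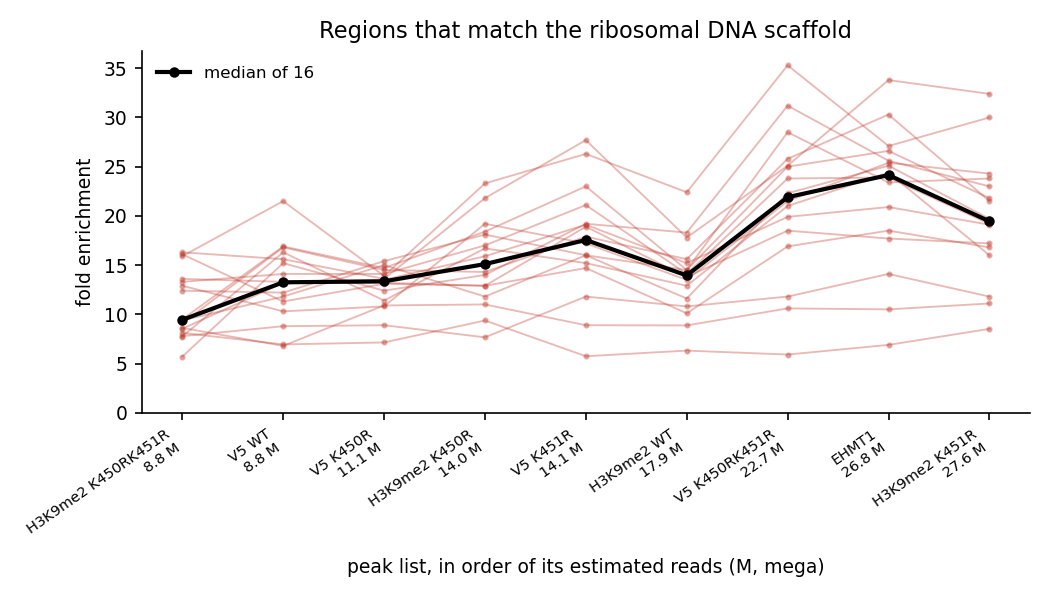
Fold enrichment (vertical axis) of the 16 shared regions that matched the ribosomal DNA scaffold, in each list ordered by its estimated reads (horizontal axis, M for mega). Thin lines are single regions and the black line is their median, which goes from 9.43 in H3K9me2 K450RK451R to 24.2 in EHMT1.

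The 25 regions with a spread of 2 or more comprised 10 of the ribosomal DNA group, 10 of no group, 3 of the 171-base repeat, 1 of the 68-base repeat and 1 of the chromosome 22 repeat. For 4 of the 25, 2 of them of the 171-base repeat and 1 each of the 68-base and chromosome 22 repeats, at least 1 of the values came from a peak that also stood for another shared region, so that their spread sets a narrow WT V5 peak against a merged one. At the chromosome 22 region, chr22:18883713-18883860, this held for all 8 other lists. Among those of no group, COL23A1 had 8.75, 8.43, 9.90 and 16.8 for V5, 17.1, 15, 19.6 and 11 for H3K9me2, and 11.4 for EHMT1. At chr12:133841529-133841865 the fold was 13.2, 8.61, 13.6 and 21.3 for V5, 10.0, 6.59, 8.33 and 14.4 for H3K9me2, and 12.0 for EHMT1. Both had their highest V5 value in K450RK451R cells, whereas for H3K9me2 these cells were the lowest at the first and the highest at the second.

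Mitochondrial sequence formed a pattern of its own. The 2 regions on the mitochondrial genome, M:53-626 and M:15899-16523, had median folds of only 2.09 (EHMT1) to 3.89 (H3K9me2 K451R), over a high local background. Pileup over the genome-wide background at the first was 302, 304, 258 and 127 for V5 in WT, K450R, K451R and K450RK451R cells, 119, 119.9, 72.5 and 138 for H3K9me2, and 189 for EHMT1. At the second it was 327, 336, 283 and 177 for V5, 146, 147, 71.5 and 197 for H3K9me2, and 193 for EHMT1. This scale divides by the background from which the reads were estimated. On it V5 was above H3K9me2 at both places in WT, K450R and K451R cells and below it in K450RK451R cells. The order turned with the scale. The deposited fold at the first was 2.81, 2.93, 2.42 and 2.93 for V5, 2.80, 3.76, 4.20 and 3.69 for H3K9me2, and 2.11 for EHMT1, and at the second it ran from 2.40 to 3.08 for V5 and from 2.96 to 3.88 for H3K9me2, with 2.52 and 2.96 in WT cells, and was 2.08 for EHMT1. By fold H3K9me2 was thus above V5 in the K450R, K451R and K450RK451R lines at both places, and in WT cells at the second. The nuclear regions whose windows were 100% identical to mitochondrial DNA, 2 in number, had no unique stretch of 51 bases. At chr13:110076444-110076700 pileup over the genome-wide background was 131, 122, 147 and 59.5 for V5, 45.3, 27.1, 18.6 and 70.7 for H3K9me2, and 125 for EHMT1, and at chr1:567298-567670, in MTCO1P12, it was 205, 180.0, 197 and 73.8 for V5, 73.9, 54.1, 37.2 and 89.1 for H3K9me2, and 161 for EHMT1. On this scale the order of V5 and H3K9me2 within each line was that of the mitochondrial genome. By fold it was not, since the chromosome 13 region gave 22.6, 25.1, 31.1 and 25.2 for V5 and 15.8, 8.93, 9.48 and 16.1 for H3K9me2, with V5 above in every line. The chromosome 1 region gave 4.48, 4.16, 4.24 and 3.46 for V5 and 4.36, 4.11, 5.55 and 4.23 for H3K9me2, with V5 above in WT and K450R cells and below in the others. Reads from nuclear copies and from mitochondria cannot be told apart there. Of the other WT V5 peaks, 23 (10.2%) matched mitochondrial DNA, against 0.473% of the shared nuclear regions.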

How the data were processed

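The deposited files were 9 peak lists on hg19. Per the submitters' processing notes, BWA 0.7.9a, SAMtools 1.2, FastQC 0.11.9 and MACS2 2.1.0 were used. For each peak the authors' files give a fold enrichment, which is a ratio of pileup to local background with 1 added to each, −log10 p and −log10 q, and a score column, 10 times −log10 q, that was not used. Other deposited columns hold the offset of the summit. The files give no values per replicate, and how the 2 replicates of a group entered its list is not given in the sources used here.

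Peaks overlapped when they shared 1 bp, and the overlapping peak with the highest −log10 p stood for a list. Pileup and background were solved from fold and −log10 p. Reads were estimated as background × 2.7 Gb / 100 bp, where the 100-bp extension and the lack of an input control were inferred from the values. Solving was checked on simulated peaks. Gaps of at least 10 kb, summit windows of 201 bases, and counts of 51-base stretches on both strands came from the GRCh37 assembly, with genes from GENCODE version 44. Windows were aligned with blastn 2.17.0 (e-value 1e-10, at least 100 bases). Python 3.11.15, numpy 2.4.6, pandas 2.3.3, scipy 1.17.1, pysam 0.24.0, numba 0.67.0 and matplotlib 3.10.9 were used. Shares carry 95% Wilson intervals, and for a count of 0 the limit is 3 counts of the total. No test was made.

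The regions, motifs, gene lists and families were chosen with earlier results of these data known. Named regions were the 5 highest and 3 lowest by WT V5 −log10 q, the mitochondrial ones, the 3 nearest to either side of the selection, and all protein-coding genes and pseudogenes overlapped. The sequence groups, the regions of widest spread and those matching ribosomal or mitochondrial DNA were chosen after their values were seen. Alternatives were other cutoffs of q, fold and p, other rules of overlap, equal list lengths, leaving out a list, other gap sizes and distances, shorter stretches and another scale for levels. Some items withheld for evaluation are not reported here.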

Additional observations from a re-analysis of the deposited data

How the results depend on the processing

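The number of shared regions ran from 284 to 460 over 19 alternatives. Of 106 comparisons of a value with its alternative, 95 stayed within the margin set for a change. Only the log2 ratios, with 12 alternatives each, could change sign, and none did. Not every alternative could move a value either way. Dropping the need for a list can only raise the number of regions, and a common cutoff of p left all 425. The share within 1 Mb of a gap, 85.6% as reported, was 79.2% for peaks held to a fold of at least 5, 68.8% when the distance was 100 kb, 93.1% at 5 Mb and 70.4% for gaps of at least 1 Mb. On pileup over the genome-wide background, the median log2 ratios to WT V5 were −0.77 for H3K9me2 in WT cells, −0.89 for EHMT1 and −0.88 for V5 K450RK451R. Holding peaks to a −log10 q of 10 or more gave −0.19 for EHMT1 and −0.14 for V5 K450RK451R, and to a fold of at least 5 −0.08 and −0.05. The causes were not tested. Shares with no unique stretch (14.1% to 19.1%), in protein-coding genes (4.71% to 7.39%) and in pseudogenes (0.875% to 1.76%) stayed within their intervals. No paired analysis was possible because only 1 list stood for both replicates and no result comes from a test. Leaving out single replicates was not run for that reason. A peak list holds no region below its calling threshold, and the lists were called at depths of 8.79 to 27.6 M reads (M, mega).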
